A study of Mus musculus with 12 samples.

Results

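The insulin-like growth factor (IGF) family was examined in newborn mouse calvaria, the flat bones of the skull roof, by RNA-seq of 12 mice. The family comprised 10 genes of the 23715 genes listed in the deposited files, namely the ligands Igf1 and Igf2, the receptors Igf1r and Igf2r, and the binding protein genes Igfbp2, Igfbp3, Igfbp4, Igfbp5, Igfbp6 and Igfbp7. These genes were chosen by family membership and because earlier results of the same mice had shown differences among them, Igf2 and Igfbp2 above all. The mutant-against-littermate values of the 10 genes are therefore given as a description. Where counts of members past a threshold are printed for these contrasts, they stand beside the share of all tested genes and support nothing. All 10 passed the filter of at least 1 FPKM, a fragment count corrected for transcript length and for library size, in at least 3 mice, as did 13059 genes in all.

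The design had 4 groups of 3 mice each, all of the C57BL/6 strain by their labels and all labelled newborn, whereas the methods of the study give parietal bone of pups at postnatal day 2. Med23 MSC-/- mice (P-KO) carry Med23 fl/fl alleles and the Prx1-Cre transgene, which deletes the Mediator subunit gene Med23 mainly in limb and craniofacial mesenchyme, and their control littermates (P-Ctrl) are labelled WT, whereas the study's legends for other experiments give the controls of this cross as Med23 fl/fl. Runx2+/- mice (R-Het) lack 1 allele of Runx2, the transcription factor that directs osteoblast formation, in every cell, and were set against WT littermates (R-WT). The labels do not say whether mice of 1 group came from different litters, so that the spread between 3 mice is all that the tests measure. The question put to the data was how each member stood in Med23 MSC-/- mice, in Runx2+/- mice and in 1 mutant relative to the other.

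IGF1 and IGF2 are secreted growth factors that act through the tyrosine kinase receptor IGF1R, whereas IGF2R takes up IGF2 and delivers it to lysosomes. IGFBP2 to IGFBP6 bind the ligands in the extracellular space and can hold them back from the receptor or carry them to it, and IGFBP7 is a relative with low affinity for IGFs. Bone matrix stores large amounts of IGFs together with IGFBP5, and Igf2 is an imprinted gene that is expressed from the paternal allele at this age.

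A few facts about the libraries bear on the values. The summed FPKM of a mouse was between 891329 and 1068933, and low values pointed to roughly 7800000 to 11600000 fragments per mouse. At this depth Igf1r rested on about 330 to 570 fragments and every other member on at least about 630. Osteoblast markers were abundant in each mouse, with a sum over 15 genes of at least 27084 FPKM. The 4 liver markers summed to at most 3.26 FPKM, so that liver, a main source of circulating IGF1, left next to no RNA here. Med23 had 5.99, 5.42 and 4.54 FPKM in P-Ctrl mice and 4.89, 5.74 and 5.28 FPKM in P-KO mice, a log2 fold change of 0.00 (SE 0.12). Runx2 differed by 0.09 (SE 0.13) in R-Het mice, so that neither targeted gene showed a lower level in its mutant. In P-KO mice Runx2 lay lower without overlap, at 23.7 to 28.7 FPKM against 30.5 to 38.0 FPKM in P-Ctrl mice. Its log2 fold change there was -0.40 (SE 0.12, limma adjusted p = 0.127), and 7.68% of all tested genes were lower without overlap. The study reported Runx2 unchanged in these mutants by real-time PCR. Each value covers a whole transcript and none the floxed exons alone, so that the deletion itself was not checked here. By western blot, the study found MED23 protein largely lost in mesenchymal stem cells from bone marrow of Med23 MSC-/- mice. By Xist, P-Ctrl mice 2 and 3 and R-WT mouse 1 were female and the other 9 mice, all mutants among them, were male. Skeletal muscle transcripts varied widely, with a sum over 10 genes of 26.3 to 1549 FPKM in P-Ctrl mice, 665 to 4654 FPKM in P-KO mice, 2139 to 6387 FPKM in R-WT mice and 30.9 to 209 FPKM in R-Het mice.

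Promoters of 3 members that stood apart most are shown first, each as the 250 bases before the RefSeq start site of GRCm38, the build that corresponds to the mm10 assembly named for the files. Capitals mark matches on either strand to the GC box GGGCGG. The RUNX motif, searched as ACCACA, and the TATA motif, searched as TATAAA, were looked for on both strands as well. The Igf2 window lies before the start of its most abundant transcript on the minus strand of chromosome 7, and the Igfbp2 and Igfbp5 windows lie on the plus and minus strands of chromosome 1.
Igf2, chr7:142657497-142657746: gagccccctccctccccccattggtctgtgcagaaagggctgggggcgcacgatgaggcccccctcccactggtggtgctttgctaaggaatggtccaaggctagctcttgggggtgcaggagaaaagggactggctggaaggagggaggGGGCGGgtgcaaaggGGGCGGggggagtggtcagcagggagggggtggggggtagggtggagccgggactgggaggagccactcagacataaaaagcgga
Igfbp2, chr1:72824230-72824479: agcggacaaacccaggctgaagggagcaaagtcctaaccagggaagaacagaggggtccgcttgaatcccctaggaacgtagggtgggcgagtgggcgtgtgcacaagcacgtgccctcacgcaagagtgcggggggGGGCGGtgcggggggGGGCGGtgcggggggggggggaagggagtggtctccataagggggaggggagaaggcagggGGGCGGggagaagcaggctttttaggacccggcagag
Igfbp5, chr1:72874866-72875115: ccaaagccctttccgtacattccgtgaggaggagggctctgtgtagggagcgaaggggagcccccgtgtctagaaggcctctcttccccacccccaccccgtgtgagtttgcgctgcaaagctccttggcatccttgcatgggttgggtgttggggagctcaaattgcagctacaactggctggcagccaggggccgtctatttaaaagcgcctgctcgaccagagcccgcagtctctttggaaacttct
The GC box occurred 2 times before Igf2, 3 times before Igfbp2 and 0 times before Igfbp5, and 32.7% of all 32851 promoter windows of this length held it. None of the 3 windows held the RUNX motif, which 14.0% of all windows held, or the TATA motif, which 12.4% held. Of the 14 windows of all 10 members, 1 held the RUNX motif (Igfbp3), 6 the GC box and 2 the TATA motif (Igfbp4 and Igfbp6). A match is a string of letters and not a shown binding site, and its absence here says nothing about sites elsewhere. The G and C share was 66% before Igf2, 67.2% before Igfbp2 and 58.8% before Igfbp5.

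Igf2 was the most abundant member in every group and lay in opposite directions relative to littermates in the mutants, although the R-Het value did not keep its sign with muscle transcripts as a covariate, as given with the muscle values. Its gene spans chr7:142650768-142666816 on the minus strand. Igf2 had 2090.4, 2043 and 2023 FPKM in the 3 P-Ctrl mice and 1136, 1099.7 and 1337 FPKM in the 3 P-KO mice. Every P-KO mouse lay far below every P-Ctrl mouse, while the controls differed from each other by only a few percent. In the other cross Igf2 had 2013, 2191 and 1941 FPKM in R-WT mice and 2555, 2368 and 2765 FPKM in R-Het mice. Here every mutant lay above every littermate. The group mean was 0.58 times that of P-Ctrl mice in P-KO mice and 1.25 times that of R-WT in R-Het mice, with log2 fold changes of log2(FPKM + 1) of -0.79 (SE 0.10) and 0.32 (SE 0.11). The difference of both changes was -1.11 (SE 0.14). Of all tested genes, 0.337% were lower without overlap in P-KO mice and higher without overlap in R-Het mice, and Igf2 was 1 of these 44 genes.

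**Figure D1:**
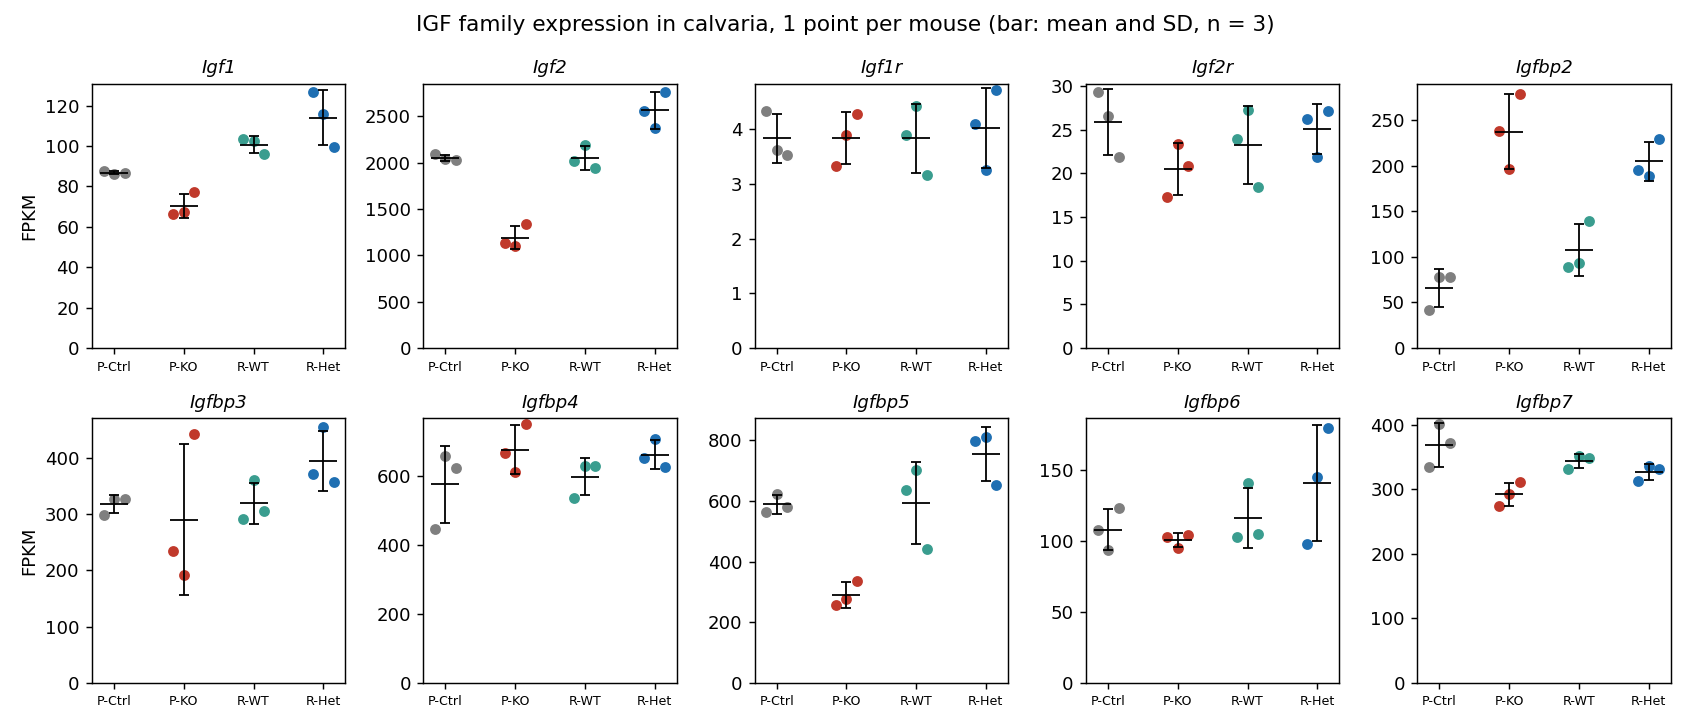
FPKM of the 10 IGF family genes in each mouse, with 1 panel per gene, the 4 groups on the x axis and linear y axes that start at 0; points are mice and bars are the mean and SD of 3 mice. Igf2 sat between 2023 and 2090.4 FPKM in P-Ctrl mice and between 1099.7 and 1337 FPKM in P-KO mice, and Igfbp2 was higher in both mutant groups than in their littermates.

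The files list 3 Igf2 transcripts, whose values were estimated separately and then added up. The transcript from the start shown above held 66.2% to 70.9% of the Igf2 value on group average. Its level was 1464, 1400.5 and 1336 FPKM in P-Ctrl mice and 762, 786 and 804 FPKM in P-KO mice, against 1402, 1522 and 1265 FPKM in R-WT mice and 1735, 1679 and 2040.4 FPKM in R-Het mice. The transcript with the most upstream start had 200 ± 81 FPKM in P-KO mice and 370 ± 68 FPKM in P-Ctrl mice (SD, n = 3 each) and did not overlap between them, whereas in the other cross it overlapped, with 359 ± 48 FPKM in R-WT mice and 373 ± 31 FPKM in R-Het mice. The remaining transcript overlapped in the Med23 cross, with 207 ± 38 FPKM in mutants and 282 ± 38 FPKM in controls, and was higher without overlap in R-Het mice. The lower level in P-KO mice was thus seen in the mean of each of the 3 transcripts, and the higher level in R-Het mice lay in the 2 transcripts with the downstream starts. The division of reads among transcripts that share most of their sequence is an estimate.

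**Figure D2:**
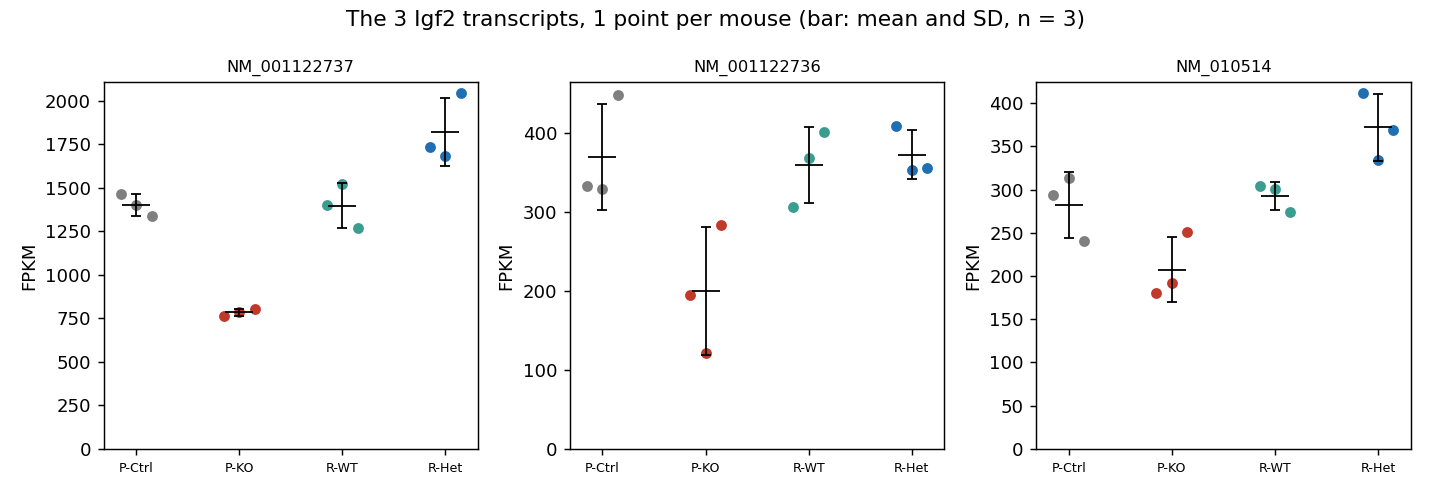
FPKM of each of the 3 RefSeq transcripts of Igf2 in each mouse, with the 4 groups on the x axis; points are mice and bars are the mean and SD of 3 mice, on linear axes that start at 0. The most abundant transcript, at the left, had at most 804 FPKM in P-KO mice and at least 1265 FPKM in every other mouse.

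Igf1, on chromosome 10, was far less abundant than Igf2. It had 87.8, 85.9 and 86.9 FPKM in P-Ctrl mice and 66.6, 67.5 and 77.1 FPKM in P-KO mice. The groups did not overlap, and the log2 fold change was -0.30 (SE 0.08). In R-WT mice Igf1 had 103.6, 102.6 and 96.0 FPKM, and in R-Het mice 126.8, 115.7 and 99.7 FPKM, which overlapped (log2 fold change 0.17, SE 0.10). The most abundant of its 4 transcripts held 68.4% to 73.6% of the value on group average. The ratio of Igf2 to Igf1 was 23.3 to 23.8 in P-Ctrl mice, 16.3 to 17.4 in P-KO mice, 19.4 to 21.4 in R-WT mice and 20.1 to 27.7 in R-Het mice, so that the Igf2 level was lower relative to Igf1 in each P-KO mouse than in any other mouse.

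Neither receptor stood apart between a mutant and its littermates. Igf1r, the signalling receptor, had 4.34, 3.62 and 3.54 FPKM in P-Ctrl mice, 3.33, 3.89 and 4.28 FPKM in P-KO mice, 3.90, 4.43 and 3.17 FPKM in R-WT mice and 4.10, 3.26 and 4.71 FPKM in R-Het mice. All 4 groups overlapped, and the 95% intervals of the log2 fold change were -0.29 to 0.29 in P-KO mice and -0.29 to 0.40 in R-Het mice. Igf2r, the scavenger of IGF2, had 25.9 ± 3.8 FPKM in P-Ctrl mice and 20.5 ± 3.0 FPKM in P-KO mice (SD, n = 3 each), with a log2 fold change of -0.32 (SE 0.14) and overlap. Its levels were 23.3 ± 4.4 FPKM in R-WT mice and 25.1 ± 2.8 FPKM in R-Het mice (SD, n = 3 each). Airn, an antisense transcript that shares 28396 bases with Igf2r, and Igf2os, which shares 7137 bases with Igf2, lie on the other strand, and reads of such partners cannot be told apart without a stranded protocol, which the sources used here do not state.

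Igfbp2 was the member that was higher without overlap in both mutants. It had 42.0, 77.5 and 78.0 FPKM in P-Ctrl mice and 237, 196 and 278 FPKM in P-KO mice. The lowest mutant lay well above the highest control. In the other cross it had 88.3, 93.4 and 139.7 FPKM in R-WT mice and 195, 189 and 229 FPKM in R-Het mice, again without overlap. The group mean was 3.60 times that of P-Ctrl mice in P-KO mice and 1.91 times that of R-WT in R-Het mice, with log2 fold changes of 1.87 (SE 0.25) and 0.95 (SE 0.18). The Med23 value exceeded the Runx2 value by 0.92 (SE 0.34). This excess was 1.62 (SE 0.32) without the female mice, 1.32 (SE 0.57) with the muscle covariate and 0.63 to 1.07 with 1 mouse left out in turn, the lowest without P-Ctrl mouse 1. The mutant groups had 237 ± 41 and 205 ± 22 FPKM, and their littermates had 65.9 ± 20.6 and 107 ± 28 FPKM (SD, n = 3 each). Of all tested genes, 3.03% were higher without overlap in both mutants.

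Igfbp5, whose protein is bound in bone matrix, was the binding protein that lay lowest relative to littermates in P-KO mice. It had 564, 623 and 579 FPKM in P-Ctrl mice and 256, 276 and 338 FPKM in P-KO mice, a mean ratio of 0.49 without overlap. In R-WT mice it had 636, 702 and 443 FPKM and in R-Het mice 799, 811 and 651 FPKM. R-WT mouse 2 lay above R-Het mouse 3, so that this pair of groups overlapped. The log2 fold changes were -1.03 (SE 0.12) and 0.36 (SE 0.18), and their difference was -1.39 (SE 0.23), the largest among the members.

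Igfbp2 and Igfbp5 are neighbours that face each other on chromosome 1, at chr1:72824480-72852474 on the plus strand and chr1:72858065-72874865 on the minus strand, with 5590 bases between their ends. The ratio of Igfbp2 to Igfbp5 was 0.075, 0.12 and 0.13 in P-Ctrl mice and 0.93, 0.71 and 0.82 in P-KO mice, a mean ratio 7.38 times as high. It was 0.14, 0.13 and 0.32 in R-WT mice and 0.24, 0.23 and 0.35 in R-Het mice, where R-WT mouse 3 lay among the mutants. The neighbours lay in opposite directions in the Med23 cross, and in the Runx2 cross both had a higher mean in the mutants.

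The other 4 binding proteins differed less. Igfbp3, the main carrier of IGFs in blood, had 235, 192 and 443 FPKM in P-KO mice against 317 ± 16 FPKM in controls, so that the mutants lay on both sides of them. In R-Het mice it had 371, 455 and 356 FPKM against 291, 361 and 304 FPKM in R-WT mice, with a log2 fold change of 0.30 (SE 0.13) and a slight overlap. Igfbp4, at rank 2 or 3 in each group, had log2 fold changes of 0.25 (SE 0.16) and 0.15 (SE 0.10), and Igfbp6 of -0.09 (SE 0.11) and 0.25 (SE 0.22), all with overlap. Igfbp7 had 334, 402 and 372 FPKM in P-Ctrl mice and 275, 292 and 311 FPKM in P-KO mice, which did not overlap (log2 fold change -0.33, SE 0.10), and in the Runx2 cross its log2 fold change was -0.07 (SE 0.08).

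Counted over the family, 3 of 10 members passed a limma adjusted p of 0.05 in P-KO mice, beside 1.57% of all tested genes. Igfbp2 was called higher, beside 1.01%, and Igf2 and Igfbp5 were called lower, beside 0.559%. In R-Het mice 1 of 10 passed, Igfbp2 as higher, beside 1.89% of all tested genes and 0.398% in that direction. For the difference of the changes 2 of 10 passed, Igf2 and Igfbp5, both lower, beside 0.153% and, in that direction, 0.0919%. The family was chosen with these contrasts in view, so nothing is read from these counts. With no filter on low values, with an ordinary per-gene test, with the muscle covariate or without the female mice 0 members passed in either mutant, and with 1 mouse left out in turn 0 to 1 did. Without overlap, 1 member was higher and 4 were lower in P-KO mice, beside 19.6% and 7.68% of all tested genes, and 2 were higher and 0 lower in R-Het mice, beside 10.7% and 10.4%. The median log2 fold change of the members was -0.26 in P-KO mice and 0.21 in R-Het mice, while that of all tested genes was 0.06 and 0.02.

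**Figure D3:**
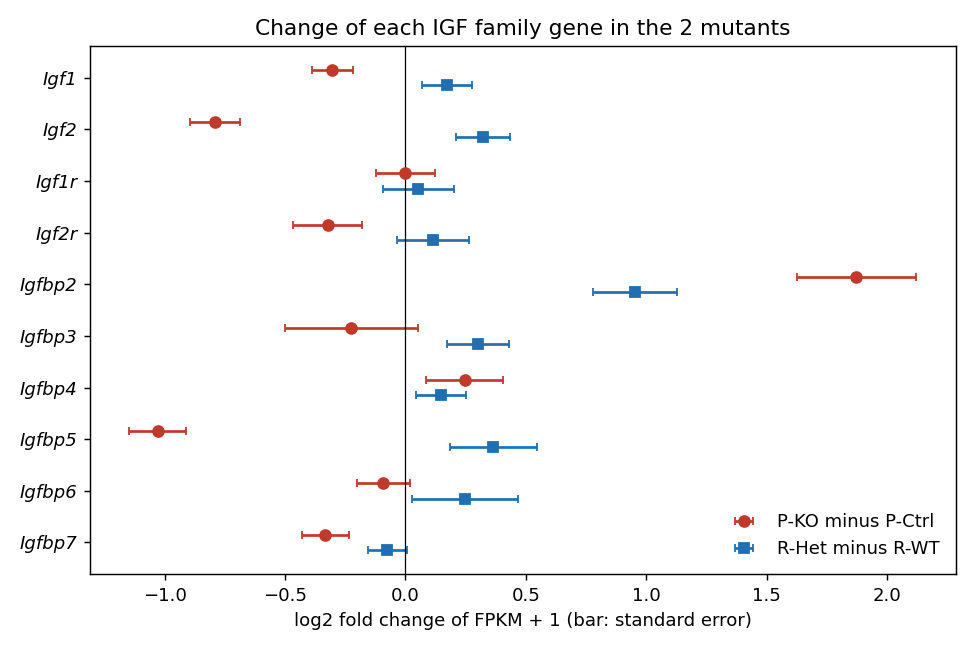
Log2 fold change of FPKM + 1 of each member, with its standard error, in P-KO against P-Ctrl mice (circles) and R-Het against R-WT mice (squares), 3 mice per group. Igfbp2 lay to the right of 0 in both, at 1.87 and 0.95, whereas Igf2 (-0.79 and 0.32) and Igfbp5 (-1.03 and 0.36) lay on opposite sides.

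Igf2 was the largest part of the summed level of the family, so that the sum and Igf2 are not independent. The 10 genes summed to 4005, 4339 and 4236 FPKM in P-Ctrl mice, 2994, 2857 and 3664 FPKM in P-KO mice, 4131, 4604 and 4029 FPKM in R-WT mice and 5141, 5153 and 5270.3 FPKM in R-Het mice. P-KO mice were below and R-Het mice above all of their littermates. Igf2 made up 47.1% to 52.2% of this sum in P-Ctrl mice and 36.5% to 38.5% in P-KO mice, against 47.6% to 48.7% in R-WT mice and 46.0% to 52.5% in R-Het mice. The ratio of the summed FPKM of both ligands to that of Igfbp2 to Igfbp6 was 1.49, 1.20 and 1.22 in P-Ctrl mice, and in P-KO mice it was 0.80, 0.85 and 0.74. The ratio was 1.28, 1.19 and 1.26 in R-WT mice and 1.27, 1.08 and 1.40 in R-Het mice, which overlapped. The sum of Igfbp2 to Igfbp6 itself overlapped between P-Ctrl mice (1655 ± 171 FPKM) and P-KO mice (1593 ± 284 FPKM; SD, n = 3 each). In the Runx2 cross it was higher without overlap in the mutants, at 2155 ± 137 FPKM against 1734 ± 167 FPKM in R-WT mice (SD, n = 3 each). These are ratios of transcript levels and not of protein.

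**Figure D4:**
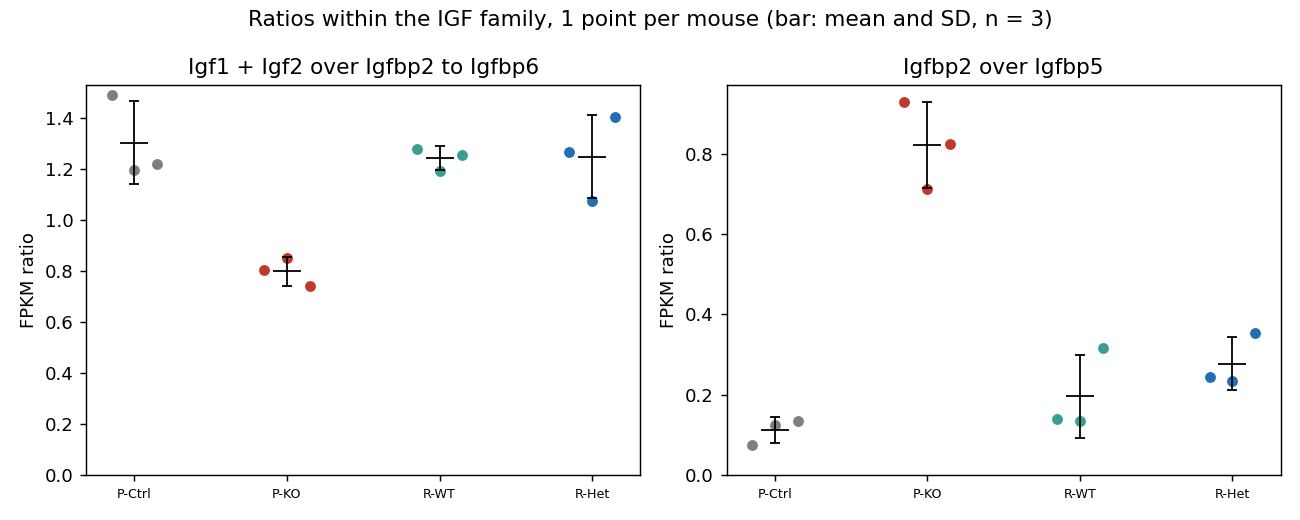
Ratio of the summed FPKM of Igf1 and Igf2 to that of Igfbp2 to Igfbp6 (left) and ratio of Igfbp2 to Igfbp5 FPKM (right) in each mouse, with the 4 groups on the x axis; points are mice and bars are the mean and SD of 3 mice. P-KO mice had the 3 lowest ligand ratios, 0.74 to 0.85, and the 3 highest Igfbp2 to Igfbp5 ratios, 0.71 to 0.93.

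In order of level, Igf2 came first in each group and Igf1r last, and Igf2r was next to last. The order between them differed from group to group, and in R-Het mice Igfbp3 lay above Igfbp7 without overlap. Igfbp5 was at rank 2 in P-Ctrl mice, with 589 ± 30 FPKM, where it overlapped with Igfbp4, and at rank 5 in P-KO mice, where Igfbp7, Igfbp3, Igfbp5 and Igfbp2 followed one another between 293 and 237 FPKM and each overlapped with the next. Igfbp2 was at rank 8 in P-Ctrl mice, below Igf1, at rank 7 in R-WT mice, where it overlapped with Igfbp6 and Igf1, and at rank 6 in both mutant groups, where it stood apart from the next. Among all genes of a mouse, Igf2 ranked 80 to 90 in P-Ctrl mice and 129 to 148 in P-KO mice, and 80 to 99 in R-WT mice and 74 to 82 in R-Het mice.

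The control groups of both crosses, a comparison that had no part in the choice of the genes, gave no call in this family. None of the 10 members passed a limma adjusted p of 0.05 between P-Ctrl and R-WT mice, where 0.0383% of all tested genes did, and 2 of 10 had an unadjusted p under 0.05, beside 9.43% of all tested genes. Igf2 differed by 0.00 on the log2 scale (95% interval -0.23 to 0.24, limma adjusted p = 0.996), and Igfbp5 by 0.01 (95% interval -0.38 to 0.40, limma adjusted p = 0.992). Igfbp2 was lower in each P-Ctrl mouse than in each R-WT mouse, with a log2 difference of -0.72 (SE 0.27, limma adjusted p = 0.465), and so was Igf1, at -0.21 (SE 0.08, limma adjusted p = 0.462). Without overlap, 2 members were lower and 0 higher, beside 10.8% and 3.89% of all tested genes. Cross, litter and any batch cannot be told apart in this comparison, and its mice also serve as the littermates above. The groups also differed in muscle transcripts, with sums of 26.3 to 1549 FPKM in P-Ctrl mice and 2139 to 6387 FPKM in R-WT mice. Of the 10 muscle genes, 9 had an unadjusted limma p under 0.05. They differed in sex as well, with P-Ctrl mice 2 and 3 and R-WT mouse 1 female.

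Marker lists of several tissues also differed in level between groups. In bulk tissue, fewer cells of a type and less RNA per cell cannot be told apart. The osteoblast list of 15 genes, which holds collagens, osteocalcin genes and Runx2, summed to 54625 to 58262 FPKM in P-Ctrl mice and 27084 to 35937 FPKM in P-KO mice. All 15 genes had a lower value in P-KO mice, beside 5053 of all 13059 tested genes. Of the 15, 2 were past an adjusted p of 0.05 (Bglap and Bglap2), beside 0.559% of all tested genes called lower. The list summed to 43539 to 51190 FPKM in R-WT mice and 32113 to 44547 FPKM in R-Het mice. There 8 genes were higher and 7 lower, beside 7326 and 5732 of all tested genes. Igf2 and Igfbp5 were thus lower in the cross in which all 15 osteoblast markers were, and their part in the result was not tested. The meningeal list of 9 genes, which holds Zic1, Foxd1, Aldh1a2, Ptgds and Crabp2, summed to 122 to 158 FPKM in P-Ctrl mice and 180 to 244 FPKM in P-KO mice. It summed to 116 to 170 FPKM in R-WT mice and 199 to 386 FPKM in R-Het mice, without overlap in either cross, as for Igfbp2. Zic1, Foxd1 and Slc6a13 were each higher without overlap in both mutants, as were 3.03% of all tested genes. Ptgds, which reached 161.6 FPKM, and Slc13a4 overlapped in both crosses. Crabp2 and Slc22a6 overlapped in the Med23 cross and Aldh1a2 in the Runx2 cross. Of 8 tested genes of the meningeal list, 7 were higher in P-KO mice and 8 in R-Het mice, beside 8006 and 7326 of all 13059 tested genes. In each mutant 1 was past an adjusted p of 0.05 as higher (Aldh1a2 and Zic1), beside 1.01% and 0.398% of all tested genes. Slc47a1 passed in the lower direction in P-KO mice (log2 fold change -0.98, SE 0.16, limma adjusted p = 0.0402). In R-Het mice Slc47a1 was higher without overlap (log2 fold change 1.13, SE 0.26, limma adjusted p = 0.080). Its difference of the changes was -2.11 (SE 0.35, limma adjusted p = 0.0481), and 0.153% of all tested genes passed there. Slc47a1 was thus lower in 1 mutant and higher in the other without overlap, as were 0.337% of all tested genes, Igf2 among them. No gene of the list was at 0 throughout, Slc22a6 reached at most 1.01 FPKM and Slc13a4 at most 1.34 FPKM, and the part of meningeal RNA in the Igfbp2 result was not tested.

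The smooth muscle and pericyte list of 7 genes summed to 262 to 313 FPKM in P-Ctrl mice and 320 to 370 FPKM in P-KO mice, higher without overlap as for Igfbp2, and to 260 to 312 FPKM in R-WT mice and 312 to 436 FPKM in R-Het mice, with a slight overlap. Its contractile genes Acta2 and Tagln were higher without overlap in both mutants, with log2 fold changes of 0.61 (SE 0.16) and 0.91 (SE 0.14) in P-KO mice and 0.55 (SE 0.17) and 0.73 (SE 0.18) in R-Het mice. The pericyte gene Rgs5 was lower without overlap in both, at -1.03 (SE 0.15) and -0.62 (SE 0.14). Of 6 tested genes, 2 had a higher and 4 a lower value in P-KO mice, with Tagln past an adjusted p of 0.05 as higher and Rgs5 as lower. In R-Het mice 4 had a higher and 2 a lower value, with 0 past it. Of all 13059 tested genes, 8006 had a higher and 5053 a lower value in P-KO mice, and 1.57% passed. In R-Het mice 7326 had a higher and 5732 a lower value, and 1.89% passed. Myh11 was below 1 FPKM in every mouse. The erythroid sum was lower without overlap in P-KO mice, at 8659 to 14406 FPKM against 15703 to 21386 FPKM, and the sums of endothelial genes (69.1 to 77.4 against 93.6 to 101 FPKM) and of osteoclast and macrophage genes (3357 to 4174 against 5094 to 6357 FPKM) were lower without overlap in R-Het mice. The part of these tissues in the results was not tested.

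Muscle was the most variable tissue. The median log2 fold change of 10 muscle genes was 2.99 in P-KO mice, with 0 called by limma. Of these 10, 2 had an unadjusted p under 0.05, beside 21.3% of all tested genes. In R-Het mice the median was -4.76, with 9 muscle genes called lower, beside 195 of all 13059 tested genes. In the P-Ctrl mice the muscle sum ran from 26.3 to 1549 FPKM and Igf2 from 2023 to 2090.4 FPKM, and in P-KO mice the muscle sum ran from 665 to 4654 FPKM and Igf2 from 1099.7 to 1337 FPKM. The part of muscle in the lower Igf2 level of P-KO mice was not tested beyond the covariate. With the mean of the muscle genes as a covariate, the Igf2 change in P-KO mice was -0.84 (SE 0.12) and that of Igfbp2 was 2.11 (SE 0.32). In the Runx2 cross, where muscle separated both groups, the same covariate left Igf2 at -0.02 (SE 0.32) and Igfbp2 at 1.21 (SE 0.50), so that the higher Igf2 level in R-Het mice and the muscle difference cannot be told apart. Without the female mice, which leaves P-Ctrl mouse 1 as the only control, the Igf2 change in P-KO mice was -0.82 and that of Igfbp2 was 2.45, and in the Runx2 cross they were 0.31 and 0.83. Cartilage, erythroid, endothelial, and osteoclast and macrophage lists had median changes of -0.44, -0.64, -0.11 and -0.40 in P-KO mice and of 0.52, -1.07, -0.22 and -0.50 in R-Het mice.

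**Figure D5:**
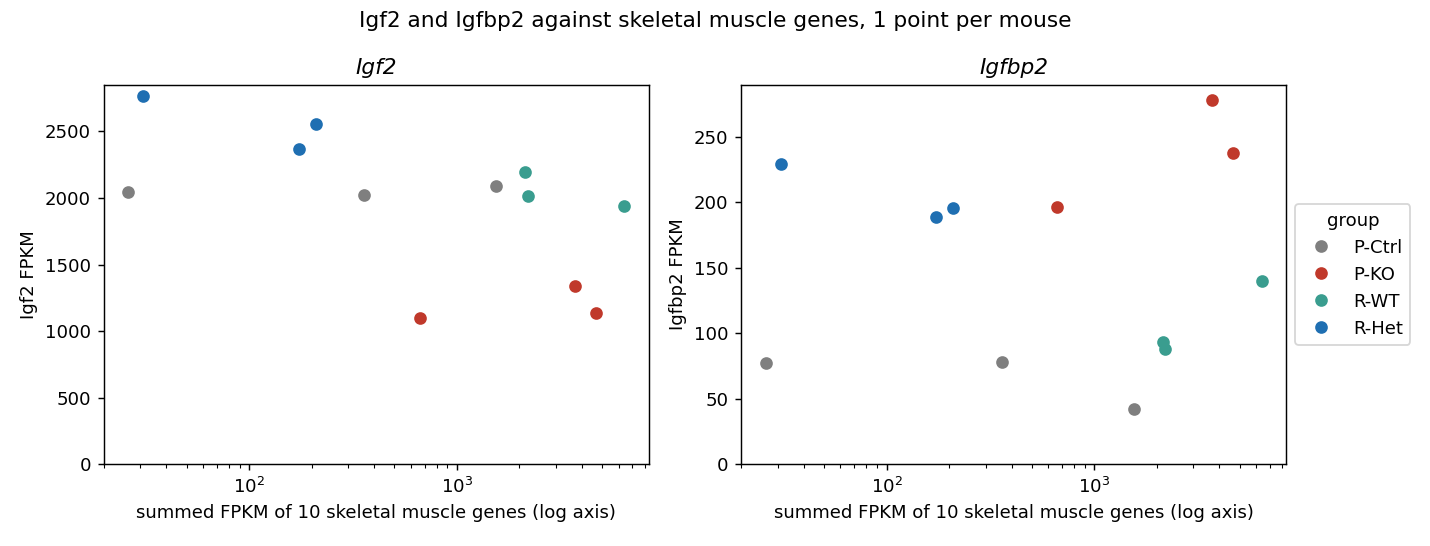
Igf2 FPKM (left) and Igfbp2 FPKM (right) on linear y axes against the summed FPKM of 10 skeletal muscle genes on a log x axis, with 1 point per mouse coloured by group. P-KO mice lay lowest for Igf2, at 1099.7 to 1337 FPKM, and had muscle sums of 665 to 4654 FPKM. The muscle sums of P-KO mice overlapped with those of P-Ctrl and R-WT mice, and those of R-Het and R-WT mice did not overlap.

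Genes of the pathway outside the family were tested in the same fits, and 0 of 39 tested genes from 5 lists passed a limma adjusted p of 0.05 in either mutant, beside 1.57% and 1.89% of all tested genes. At an unadjusted p under 0.05 there were 5 of 39 in P-KO mice and 6 of 39 in R-Het mice, beside 21.3% and 15.4% of all tested genes. Among the regulators of IGF binding proteins, Stc2, an inhibitor of pappalysin proteases, had 2.43, 2.75 and 1.52 FPKM in P-Ctrl mice and 3.84, 3.82 and 4.76 FPKM in P-KO mice, higher without overlap (log2 fold change 0.68, SE 0.17, limma adjusted p = 0.0936). Stc2 was also higher without overlap in R-Het mice, with 2.47, 4.66 and 2.26 FPKM against 2.23, 1.80 and 1.42 FPKM in R-WT mice. Its change there was 0.52 (SE 0.22, limma adjusted p = 0.322). Higher without overlap were 19.6% of all tested genes in P-KO mice and 10.7% in R-Het mice. Pappa2, a protease that cleaves IGFBP3 and IGFBP5, had changes of 0.60 (SE 0.22, limma adjusted p = 0.180) and 0.50 (SE 0.19, limma adjusted p = 0.253). The other tested gene of that list, Htra1, had 0.01 and 0.15, and Pappa and Stc1 did not pass the filter on low values. The list median was 0.60 in P-KO mice and 0.50 in R-Het mice over these 3 genes.

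Downstream of the receptor, 24 of 25 listed genes were tested, and their median log2 fold changes were 0.04 in P-KO mice and 0.08 in R-Het mice, close to those of all genes. Ptpn1, a tyrosine phosphatase, was at -0.34 (SE 0.15) and -0.37 (SE 0.10), with limma adjusted p-values of 0.238 and 0.106. Pik3r1, the regulatory subunit of PI3 kinase, was at 0.22 (SE 0.11) and 0.30 (SE 0.10), and the transcription factor gene Foxo3 was at -0.06 and 0.34. In the growth hormone list, which holds 6 genes, Stat5a was at -0.62 in P-KO mice (SE 0.14, limma adjusted p = 0.0787), with 3.10, 2.01 and 2.76 FPKM against 4.14, 5.02 and 4.48 FPKM, and at -0.14 in R-Het mice. Ghr, the growth hormone receptor gene, was at 0.18 and 0.14, and Cish, a STAT5 target, at -0.12 and 0.21. Insr, the insulin receptor gene, was at -0.16 and 0.09, and the RNA-binding protein genes Igf2bp1 and Igf2bp2 were at 0.08 and 0.31 in P-KO mice and at 0.16 and 0.15 in R-Het mice. The antisense transcripts Igf2os and Airn were at -0.20 and 0.24 in P-KO mice and at 0.36 and 0.35 in R-Het mice, with limma adjusted p-values between 0.211 and 0.413.

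The genes whose levels were most like that of Igf2 over the 12 mice were Kcnip1 (Pearson r of log2(FPKM + 1) 0.95), Igfbp5 (0.95), Bmper (0.94), Fgf7 (0.93) and Rarres1 (0.93). Bmper encodes a secreted BMP modulator and Fgf7 a fibroblast growth factor. Kcnip1 had 0.89 to 1.35 FPKM in P-KO mice and 1.94 to 2.67 FPKM in the other 9 mice, and Fgf7 had 2.24 to 2.46 FPKM against 4.09 to 7.56 FPKM, so that both separated the P-KO mice from all others as Igf2 did. Both genes were picked for their likeness to Igf2 in these same mice, so that this separation follows in part from the choice. For Igfbp2 the nearest were Alcam (0.95), Stk39 (0.95), Triqk (0.94), Fmr1 (0.94) and Zfp931 (0.94). Alcam, a cell adhesion molecule, had 9.95 to 11.6 FPKM in P-Ctrl mice, 19.5 to 27.0 FPKM in P-KO mice, 13.4 to 14.2 FPKM in R-WT mice and 18.6 to 22.4 FPKM in R-Het mice. Among the members, Igf2 also followed Igf1 (0.89), and the r of Igf2 with Igfbp2 was -0.32. These coefficients describe 12 mice in 4 groups and reflect group differences as well as differences between mice.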

How the data were processed

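RNA of the calvaria of 12 mice was sequenced with an Illumina TruSeq kit. The authors deposited 1 FPKM value per RefSeq transcript and mouse, and the submitters' processing notes name Bowtie 0.12.8 and mm10. The program that made the FPKM values and its strand setting are not given in the sources used here. The unit was read from the values.

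Transcripts (30411) got their symbols from the NCBI table of GRCm38 genes (29835) or from GENCODE M21 (180), and 396 kept their identifier. FPKM values were added up per gene, and of 23715 genes the 13059 that reached 1 FPKM in 3 or more mice were tested on log2(FPKM + 1), a scale that understates the change of low genes. Each mutant was compared with its littermates, and control with WT mice, by limma 3.58.1 with a mean-variance trend in R 4.3.3, on 6 mice each and with p-values adjusted over all tested genes by Benjamini-Hochberg. The difference of the changes was an interaction contrast in 1 fit of 12 mice. Depth was estimated from FPKM times length of genes with 1 transcript. It covers counting error only and is rough, since GENCODE lengths stood in for those of the authors. The fits were tested on simulated data. Sums, ratios and plots were made in Python 3.11.15 (pandas 2.3.3, matplotlib 3.10.9 and numpy 2.4.6).

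The members and all gene lists were chosen with earlier results of these data known. Named genes were the 10 members, in each pathway list any gene past the threshold and the 2 genes with the largest change in each mutant, and the 5 genes most like Igf2 and Igfbp2 by Pearson r, leaving out predicted genes and RIKEN clones. Marker genes were named where a result turned on them, and Htra1, Pappa, Stc1, Acta2, Tagln, Rgs5, Myh11, Ptgds, Crabp2 and Slc6a13 were named after their values were seen. No transcript matched H19 or Cd68, which are not reported. Promoter sequences are from RefSeq (GRCm38.p6), with a window for each of the 10 members. Alternatives were another pseudocount, no filter, median-ratio scaling, 1 fit of all mice, a muscle covariate, a replicate block, an ordinary per-gene test, each mouse or the female mice left out, and the most abundant transcript in place of the sum. In the text the groups bear their labels P-Ctrl, P-KO, R-WT and R-Het.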

Additional observations from a re-analysis of the deposited data

Results flagged for a closer look

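The changes of 2 members in P-KO mice and in R-Het mice differed beyond the threshold of the interaction contrast in limma, a contrast that had served to choose the genes. For Igf2 the change in P-KO mice minus that in R-Het mice was -1.11 on the log2 scale (SE 0.14), with every mutant mouse below its littermates in the first cross and above them in the second. The muscle covariate left the change in R-Het mice at -0.02 (SE 0.32) and the difference at -1.10 (SE 0.25). For Igfbp5 it was -1.39 (SE 0.23), with mutant mice below all littermates in the first cross and overlapping with them in the second.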

How the results depend on the processing

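The calls on members did not hold under several settings, and some values moved, above all Igf2 in the Runx2 cross with the muscle covariate. With no filter, 0 members passed in either mutant and 1 for the difference of the changes, and 1, 5 and 6 genes in all, with Igf2 at -0.79 and Igfbp2 at 1.87 and 0.95. With an ordinary per-gene test 0 members passed in any comparison, and 0, 1, 1 and 1 genes in the Med23 cross, the Runx2 cross, the difference and the control comparison, at the same values and an Igf2 difference of -1.11. With the muscle covariate 0 members passed, and 1, 3, 0 and 2 genes, with Igf2 at -0.84, -0.02 and, for the difference, -1.10 and Igfbp2 at 2.11, 1.21 and, for the difference, 1.32. The difference was fitted with 1 muscle slope for all 12 mice and each cross with its own slope, so that the former is not the difference of the latter. Without the female mice 0 members passed, and 0, 34, 1 and 17 genes, with Igf2 at -0.82 and -1.13 for the difference and Igfbp2 at 2.45, 0.83 and, for the difference, 1.62. In these 4 settings Igf2 and Igfbp2 in the Med23 cross and Igfbp2 in the Runx2 cross did not pass. Igfbp2 in the Runx2 cross, 0.95, also fell short with all 12 mice in 1 fit (0.95, and 717, 95 and 8 genes in the Med23, Runx2 and control comparisons), with median-ratio scaling (0.94) and with the most abundant transcript (0.95, and 57 and 111 genes in the Med23 and Runx2 crosses), which left 0 members there and, for the last, 1 for the difference. The cause was not tested.

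With each mouse left out in turn, the Igf2 change stayed between -0.88 and -0.73 in the Med23 cross and between -1.20 and -1.06 for the difference, and the Igfbp2 change between 1.58 and 2.02, between 0.83 and 1.16 and, for the difference, between 0.63 and 1.07. Between 0 and 1 members passed in either cross and 0 to 2 for the difference, and 0 to 35, 34 to 169, 2 to 164 and 4 to 10 genes in the Med23 cross, the Runx2 cross, the difference and the control comparison. Such fits leave 2 mice in an arm.

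Scaling changed the balance of all calls in the Med23 cross from 132 higher and 73 lower to 58 higher and 88 lower, and shifted the median of all genes by less than 0.1. Of 150 alternative values of members in the Med23 cross, 149 kept their sign or had no sign to compare, with a value that rounds to 0.00. The exception was Igfbp3 at 0.02 without P-KO mouse 2. Igf1r, at 0.00 in the main fit, is counted among the 149 and lay between -0.07 and 0.08 with a mouse left out. In the Runx2 cross 143 of 150 kept their sign by the same count, and the muscle covariate turned Igf1r to -0.65, Igf2r to -0.56 and Igfbp6 to -0.83. Between P-Ctrl and R-WT mice, the values of Igf2 (0.00), Igfbp5 (-0.20) and Igfbp7 (-0.04) turned with the muscle covariate, Igfbp7 (-0.07) without the female mice and Igfbp3 (0.05) with scaling, and leaving out a mouse moved Igf1r between -0.10 and 0.09, Igf2 between -0.03 and 0.05, Igfbp3 between -0.06 and 0.09, Igfbp4 between -0.18 and 0.10, Igfbp5 between -0.18 and 0.15 and Igfbp6 between -0.20 and 0.04. Of the pathway genes, the muscle covariate turned Foxo3 (0.15) and Ghr (0.00) in the Med23 cross and Insr (-0.56), Pappa2 (-0.07), Pik3r1 (-0.10), Ghr (-0.05), Stat5a (0.31) and Cish (-0.24) in the Runx2 cross, where the most abundant transcript put Stat5a at 0.54. Leaving out a mouse moved Foxo3 between -0.25 and 0.04 in the Med23 cross and Insr between 0.00 and 0.19 in the Runx2 cross.

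The replicate numbers were not taken as pairs, since the labels do not give them as such. The deviations of same-numbered mice from their group means correlated at 0.18, 0.26 and 0.05 in the Med23 cross. In the Runx2 cross they correlated at 0.00, -0.05 and -0.08. With the replicate block 273 genes passed in the Med23 cross, where 205 had passed without it. With it, 90 passed in the Runx2 cross, 136 for the difference and 2 between P-Ctrl and R-WT mice. In the Med23 cross each P-KO mouse correlated best with the control of its own number, a hint from the data and not from the design. Depth limited Igf1r most.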
